A study of Mus musculus with 6 samples.

Results

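The 10 genes described here encode proteins that carry calcium through one contraction of a skeletal muscle fibre: the voltage sensor (Cacna1s), the release channel (Ryr1), the protein that holds their membranes together (Jph1), the buffers of the calcium store (Casq1 and Casq2), the pumps that refill it (Atp2a1 and Atp2a2), the small inhibitors of these pumps (Sln and Pln) and the cytosolic buffer parvalbumin (Pvalb). They were listed by name for their roles, with earlier results of these data known. All 10 were on the array, with 13 of the 55669 probes measured, and all 10 were among the 20901 genes tested. Expression was measured in whole gastrocnemius muscle of male C57BL/6J mice, with no treatment named for either group, of which 3 were young (13 weeks of age) and 3 aged (26 months of age). Total RNA of each mouse was labelled with Cy3 and hybridized to its own single-colour Agilent mouse array, and the deposited intensities, background-subtracted by the scanner software, were used here on the log2 scale relative to the 75th percentile of each array. A value of 0 therefore stands at the 75th percentile, and each further unit is a doubling.

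A nerve impulse that spreads along the fibre surface into its transverse tubules is sensed by the Cacna1s channel, which opens Ryr1 in the facing membrane of the sarcoplasmic reticulum, so that stored calcium floods the cytosol and the filaments contract. Relaxation follows when SERCA pumps, SERCA1 from Atp2a1 in fast fibres and SERCA2 from Atp2a2 in slow fibres and the heart, return the calcium to the store, where calsequestrin binds it. Sarcolipin (Sln) and phospholamban (Pln) are short membrane peptides that bind these pumps and restrain them. In mice sarcolipin is best known from the atria of the heart and from slow and oxidative muscle, and parvalbumin from fast fibres, where it takes up calcium between twitches.

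The 6 arrays were on 1 slide and no probe was saturated. The 3 young arrays and that of aged mouse 1 lay in row 1 of the slide, those of aged mice 2 and 3 in row 2, so row and age are largely confounded. Between 48.7% and 53.8% of the probes of an array were well above background. Aged mouse 1 and young mouse 3 stood apart from the other mice of their groups, with 3.71% and 2.60% of genes more than 1 log2 unit from the group mean, against 0.957% to 1.76% on the other arrays. At an adjusted p under 0.05 (limma, Benjamini-Hochberg over all genes), 53 genes (0.254% of those tested) differed with age, 41 higher and 12 lower in aged mice, or 26 of 42 higher after scaling to the array median. This number was 199 without aged mouse 1 and 1 without aged mouse 3. All 8 listed skeletal muscle genes, of which Tnnt3 was the brightest, were well above background on every array, with summed levels of 5252 to 6242 times the 75th percentile in young and 4330 to 5604 times in aged mice. The labels do not state whether mice shared a litter or cage. The p-values set a difference against the spread between these mice, and limma draws the variance of each gene toward that of all genes.

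Sarcolipin stood out among the calcium genes. Its signal was 8.18-fold higher in aged than in young mice (95% interval 3.44 to 19.4) and that of Atp2a2 was 0.599-fold (0.416 to 0.861), whereas the other 8 members differed by less than 0.4 on the log2 scale in either direction. None of the 10 passed an adjusted p of 0.05 in limma, which 0.254% of all genes did (0.196% higher and 0.0574% lower in aged mice), and 2 of them, Sln and Atp2a2, had an unadjusted p under 0.05, a level that 14.4% of all genes reached. The groups did not overlap for 3 members, higher in aged mice for Sln and lower for Atp2a1 and Atp2a2, and this held for 21.8% of all genes (7.92% higher and 13.9% lower). By their mean, 5 members were higher and 5 lower in aged mice, against 9019 higher and 11882 lower of all genes tested. Their median log2 fold change was 0.016, against -0.062 over all genes tested. A difference in whole muscle RNA may come from fewer cells or fibres of a type or from less RNA in each of them, and these cannot be told apart here.

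**Figure D1:**
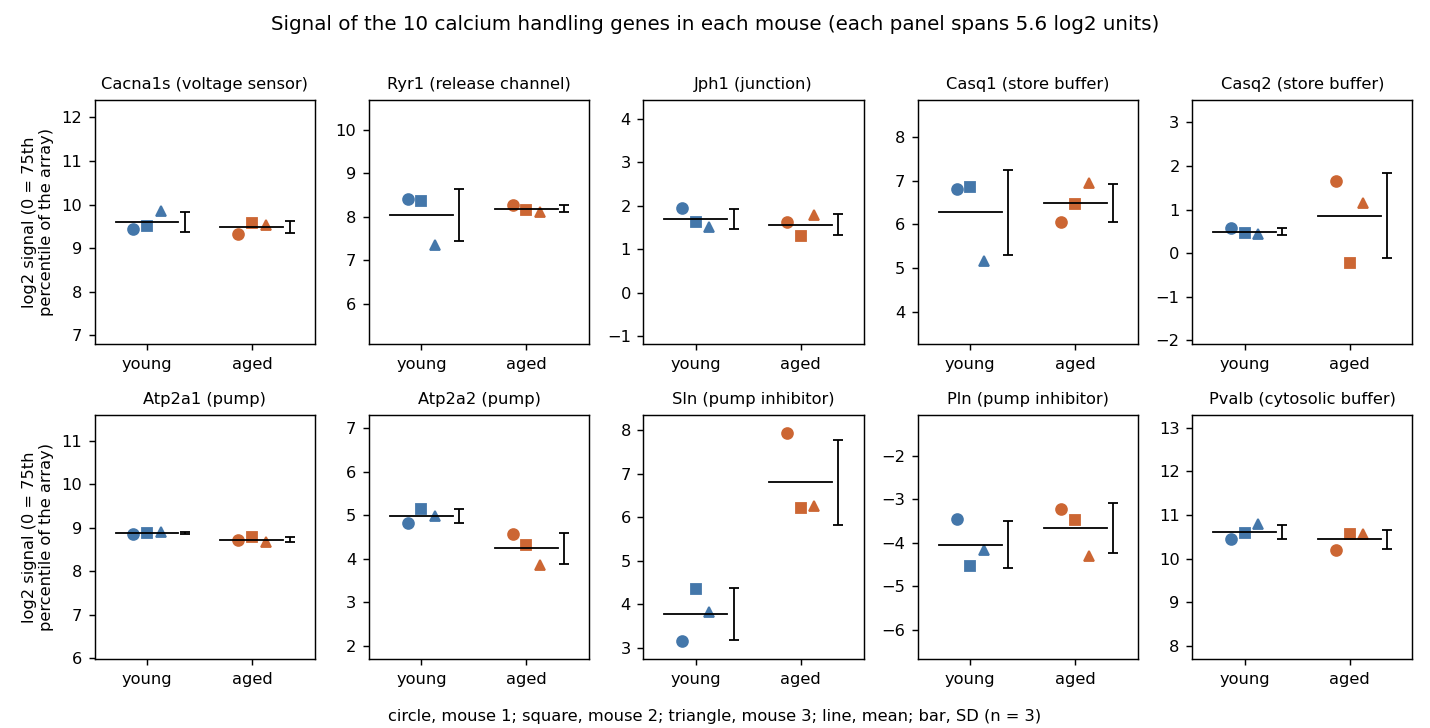
Log2 signal of the 10 calcium handling genes in each of 3 young (blue) and 3 aged (orange) mice, relative to the 75th percentile of the array. Horizontal lines are means and bars SD (n = 3). All panels span the same range of log2 units. Only in the panels of Sln, Atp2a2 and Atp2a1 do the groups not overlap, and young mouse 3 lies below the other young mice for Ryr1 and Casq1.

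Cacna1s (NM_001081023) encodes the pore of the dihydropyridine receptor, which in skeletal muscle acts mainly as a voltage sensor. Young mice 1 to 3 had log2 signals of 9.44, 9.50 and 9.86, and aged mice 1 to 3 had 9.33, 9.58 and 9.53. The groups overlapped, and the log2 fold change was -0.12 (standard error 0.18, adjusted p = 0.783 from limma), with an interval of 0.681-fold to 1.24-fold. A second Cacna1s probe gave -0.20. The direction depended on young mouse 3, without which the change was 0.0085, and on the scaling, since it was 0.050 after quantile normalization.

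Ryr1 (NM_009109), the release channel of the sarcoplasmic reticulum, had log2 signals of 8.40, 8.35 and 7.35 in the young and 8.28, 8.16 and 8.12 in the aged mice, in the same order. The aged mice lay close together, between the high values of young mice 1 and 2 and the low value of young mouse 3. The log2 fold change was 0.15 (standard error 0.30, adjusted p = 0.836 from limma) and became -0.19 without young mouse 3. The mutual difference of Cacna1s and Ryr1 within an array, which does not depend on scaling between arrays, averaged 1.57 (SD 0.82, n = 3) for young and 1.29 (SD 0.21, n = 3) for aged mice (exact two-sided permutation p = 0.9).

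Junctophilin 1 (Jph1, NM_020604) bridges the transverse tubule and the sarcoplasmic reticulum, so that voltage sensor and release channel face each other. Its log2 signal was 1.94, 1.64 and 1.51 in young and 1.61, 1.30 and 1.78 in aged mice, with overlapping groups and a mean difference of -0.13 (SE 0.20, limma adjusted p = 0.790). Without aged mouse 2, the lowest of the 6, the change was 0.0021.

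Calsequestrin is the high-capacity calcium buffer inside the store, with Casq1 (NM_009813) as the skeletal muscle form and Casq2 (NM_009814) as the cardiac form, also present in slow fibres. The log2 signal of Casq1 was 6.81, 6.86 and 5.16 in young and 6.07, 6.47 and 6.94 in aged mice. Young mouse 3 was again the lowest, 1.12 below the young mean, and it set the sign of the change, which was 0.22 (standard error 0.49, adjusted p = 0.861 from limma) with this mouse and -0.34 without it. The interval, 0.518-fold to 2.60-fold, leaves room for a large change either way.

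Casq2 differed from Casq1 in where its spread lay. The 3 young mice were nearly alike, at 0.58, 0.45 and 0.45 on the log2 scale, while the aged mice ranged from -0.24 in mouse 2 to 1.16 in mouse 3 and 1.65 in mouse 1. The SD was 0.076 in young and 0.98 in aged mice (n = 3 each). The young values lay between those of the aged mice, so the groups overlapped, and the mean difference of 0.37 (SE 0.46, limma adjusted p = 0.738) became -0.032 without aged mouse 1 and 1.16 with the slide row as a block, which sets aged mouse 1 against the young mice. Neither calsequestrin thus showed a difference larger than the spread between mice, and the difference Casq2 minus Casq1 within an array averaged -5.78 (SD 0.93, n = 3) for young and -5.63 (SD 1.15, n = 3) for aged mice (exact permutation p = 0.8). With the slide row as a block the change in this difference was 1.37, against 0.15 without it.

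**Figure D2:**
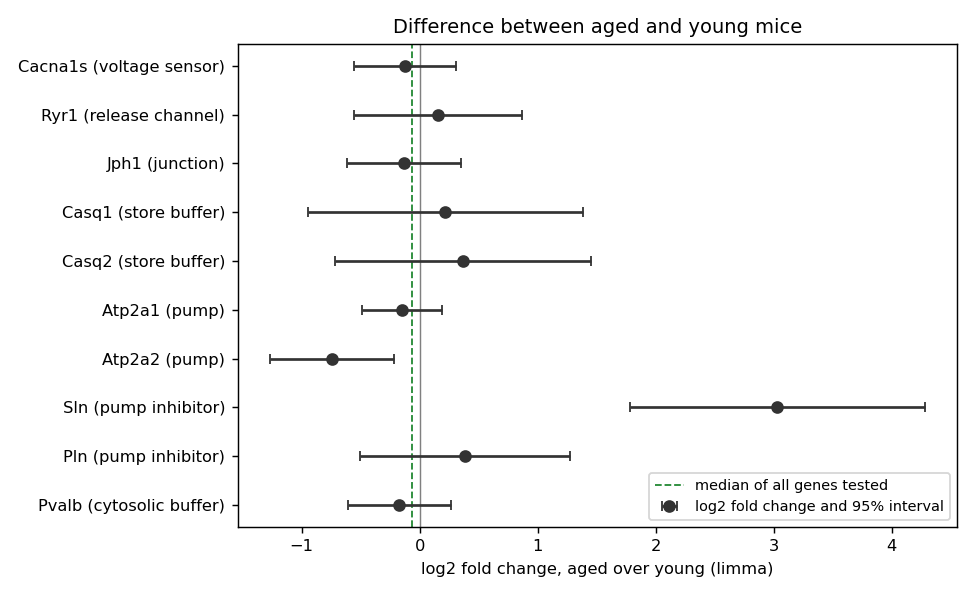
Log2 fold change of each member in aged over young mice, with its 95% interval from limma. The solid line marks 0 and the dashed line the median of all 20901 genes (-0.062). The intervals of Sln (1.78 to 4.28) and Atp2a2 (-1.27 to -0.22) exclude 0, before any adjustment for the number of genes, and those of the other 8 members include it.

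Atp2a1 (NM_007504) encodes SERCA1, the calcium pump of fast fibres. Its log2 signal was 8.86, 8.88 and 8.90 in young and 8.72, 8.79 and 8.67 in aged mice, with an SD of 0.020 in young mice. Every aged mouse lay below every young mouse, but by little, -0.15 on the log2 scale (0.902-fold, SE 0.14, limma adjusted p = 0.653). This standard error is wider than the spread of Atp2a1 between these mice alone, since limma draws its variance toward that of all genes. Relative to the young mean, aged mice 1 to 3 were at -0.16, -0.083 and -0.20. The 406 genes with a mean log2 signal above 8, which include Atp2a1, Cacna1s, Ryr1 and Pvalb, had a median change of -0.16, with -0.32, -0.027 and -0.10 in aged mice 1 to 3, and after quantile normalization the change of Atp2a1 was 0.0053.

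Atp2a2 (NM_009722) encodes SERCA2, whose muscle isoform is the pump of slow fibres and the heart, while a further isoform is found in most cells. The log2 signal was 4.83, 5.14 and 4.98 in young and 4.56, 4.31 and 3.86 in aged mice. All aged mice were below all young mice, and the log2 fold change was -0.74 (standard error 0.22, unadjusted p = 0.0127 and adjusted p = 0.232 from limma). Of 18 alternatives, 5 left this value as it was, and the other 13 gave -0.90 to -0.42, with an adjusted p over all 18 between 0.121 and 0.564 from limma. The smallest differences were -0.42 with the slide row as a block and -0.47 with the mean of both probes. The other Atp2a2 probe, also well above background on all arrays, gave a smaller difference of -0.21 with overlapping groups (adjusted p = 0.761 from limma over probes). The probes carry the same accession, and which isoforms each detects is not given in the sources used here.

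Slow-fibre genes had lower means in aged mice, as Atp2a2 did. All 9 listed had a lower mean, with a median log2 fold change of -0.58 against -0.062 over all genes, 0 of 9 past the adjusted threshold in limma and 4 with an unadjusted p under 0.05, against 14.4% of all genes. Their summed level was 1536, 1890 and 2021 times the 75th percentile in young mice 1 to 3. It was 1436, 1427 and 988 times in aged mice 1 to 3, without overlap. Myl3, a slow myosin light chain and the brightest of these genes, was 9.13, 9.22 and 9.52 in young and 8.72, 9.04 and 8.37 in aged mice. Of the 9 fast-fibre genes tested, 8 had a lower mean, with a median of -0.17 and -0.27 for Tnnt3. Their summed levels, 5011 to 5894 times in young and 4159 to 5307 times in aged mice, overlapped. Aged mouse 1 had the lowest fast sum, 4159 times, and its slow sum was not low relative to its fast sum. On its array the genes with a mean log2 signal above 8 had a median change of -0.32. In the other aged mice the fast sums, 5307 and 5034 times, lay within the young range, and the slow sums below all young mice. The part of fibre composition in the Atp2a2 difference was not tested.

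The difference Atp2a2 minus Atp2a1 within an array gives the slow against the fast pump without any scaling. It was -4.03, -3.74 and -3.92 in young and -4.16, -4.48 and -4.82 in aged mice. All aged mice were below all young mice, by 0.59 on average (a ratio of 0.664-fold), with an exact permutation p of 0.1, the smallest that 3 against 3 mice allow, and 0.2 after adjustment over the 4 pairs compared. After quantile normalization the aged minus young change was -0.67. With the mean of both Atp2a2 probes it was -0.33 and the exact permutation p 0.3.

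Sarcolipin (Sln, NM_025540) binds SERCA and lowers the amount of calcium moved per ATP. Young mice 1 to 3 had linear Sln signals of 8.89, 20.3 and 14.1 times the 75th percentile, against 244, 74.0 and 76.9 times for aged mice 1 to 3. The lowest aged mouse was more than 3 times the highest young mouse, and aged mouse 1 was more than 3 times the other aged mice. On the log2 scale the values were 3.15, 4.35 and 3.81 in young and 7.93, 6.21 and 6.26 in aged mice, and the fold change was 3.03 (standard error 0.53, unadjusted p = 0.000751 and adjusted p = 0.101 from limma). Only 48 of the 20901 genes had a larger difference, and by p it ranked 155 among them.

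Of 18 alternatives, 6 left the fold change of Sln at the same value, and in the other 12 it was higher in aged mice, by 2.47 to 4.16 on the log2 scale. Without aged mouse 1 the change was 2.47 and passed the threshold (adjusted p = 0.0491 from limma). With the row of the slide as a block it was 4.16 (adjusted p = 0.0476 from limma), a comparison of aged mouse 1 alone with the young mice that shared its row. The spread then comes from the young mice and aged mice 2 and 3, and aged mouse 1 is assumed to vary like them. The highest adjusted p was 0.267, without young mouse 1.

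Markers of other tissues were set beside the Sln values. Sarcolipin is abundant in atrial muscle, and of 9 listed cardiac genes Myl7, Nppb, Mybpc3 and Ryr2 were well above background on no array. The other 5 were tested, 4 with a higher mean in aged mice and with a median log2 fold change of 0.57. Of these, 0 passed the adjusted threshold in limma. Only Myl4 (log2 fold change 0.78, limma unadjusted p = 0.0425) had an unadjusted p under 0.05, against 14.4% of all genes. The summed level of the 5 was 15.1 to 27.5 times the 75th percentile in young and 24.0 to 36.7 times in aged mice, with overlap. The brightest was Myl4, the atrial and embryonic light chain. Its log2 means were 4.06 (SD 0.53, n = 3) for young and 4.84 (SD 0.35, n = 3) for aged mice, with overlapping groups. Nppa, the atrial natriuretic peptide, had means of -3.39 and -2.99, also with overlap. Myh6, a cardiac myosin heavy chain, was the tested gene with a lower mean in aged mice. Its means were 0.48 for young and -0.30 for aged mice, with overlap (log2 fold change -0.78, adjusted p = 0.418 from limma). The part of cardiac muscle in the Sln difference was not tested.

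Genes known to respond to loss of the nerve were also set beside Sln. Of 10 tested, 9 had a higher mean in aged mice, with a median log2 fold change of 1.46 (1.23 with Chrng, well above background on no young array, at its bound). In limma 0 passed the adjusted threshold and 9 had an unadjusted p under 0.05, against 14.4% of all genes. These 9 include Chrng, which passed the detection filter only through the aged arrays, so its p is not read. Their summed level was 24.6 to 28.8 times the 75th percentile in young mice and 54.5, 74.8 and 133 times in aged mice 1 to 3. Sln was highest in aged mouse 1, but with 3 aged mice nothing is read from their order. Chrna1, an acetylcholine receptor subunit and the brightest of them, was 3.56-fold higher (log2 fold change 1.83, adjusted p = 0.153 from limma). It passed the threshold without aged mouse 1 (2.28, adjusted p = 0.0349 from limma) and was at 0.95 with the slide row as a block (adjusted p = 0.393 from limma). The part of these genes' regulation in the Sln difference was not tested.

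Phospholamban (Pln, NM_023129), the inhibitor best known from heart and slow muscle, was barely measured. Its only probe exceeded background clearly in 1 young and 2 aged mice, with log2 signals of -3.46, -4.53 and -4.16 in young and -3.21, -3.47 and -4.30 in aged mice. The groups overlapped (log2 fold change 0.38, standard error 0.37, adjusted p = 0.658 from limma), and the change was -0.00048 after normexp background correction. A difference in Pln was not detectable at this signal. The difference Sln minus Pln was 6.61, 8.87 and 7.97 in young and 11.15, 9.68 and 10.56 in aged mice, higher in all aged mice. Since Pln was not well above background on 3 of the 6 arrays, no size or p is read from this difference.

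**Figure D3:**
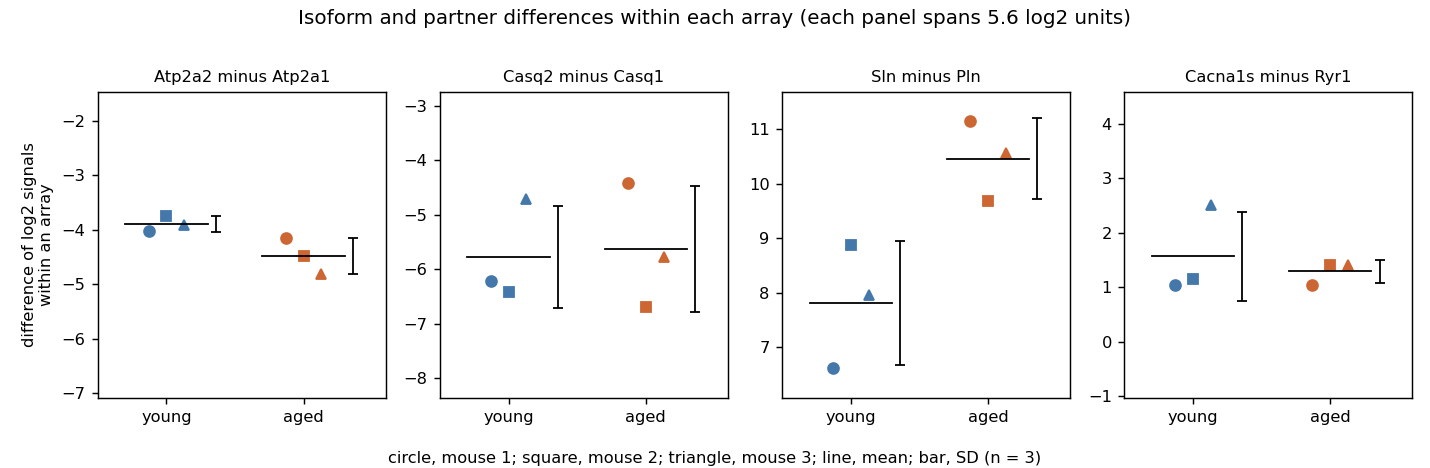
Difference of the log2 signals of 2 genes on the same array, for 4 pairs, in 3 young (blue) and 3 aged (orange) mice, with means (lines) and SD (bars, n = 3). The groups do not overlap for Atp2a2 minus Atp2a1 and Sln minus Pln, the latter with Pln not well above background on 3 arrays, and overlap for Casq2 minus Casq1 and Cacna1s minus Ryr1. The heights of different panels are not comparable, since each depends on its probes.

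Parvalbumin (Pvalb, NM_013645), the cytosolic buffer of fast fibres, had the log2 signals 10.46, 10.59 and 10.79 in young and 10.19, 10.56 and 10.56 in aged mice. The groups overlapped and the log2 fold change was -0.17 (standard error 0.18, adjusted p = 0.686 from limma), with an interval of 0.656-fold to 1.20-fold. The other probe gave -0.22. Aged mouse 1 was the lowest on both probes, and young mouse 3 the highest, and without these mice the change was 0.037.

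In their course over the 6 arrays, the genes with a symbol most like Sln were Hpgd, which degrades prostaglandins, Retnlg, a resistin-like secreted protein, and Igfbp2, an insulin-like growth factor binding protein. The root mean square difference from Sln, after each gene was centred on its own mean, was 0.319, 0.330 and 0.498 log2 units. The log2 fold change of Hpgd was 3.42 (limma adjusted p = 0.0321, higher in 3 of 3 aged mice than in any young mouse), a call that was lost when any mouse other than aged mouse 1 was left out (adjusted p between 0.0857 and 0.122 from limma), with no filter on dim probes and with the replicate block. Retnlg and Igfbp2 were well above background on no young array, and were at least 8.23-fold and 2.87-fold higher in aged mice, with adjusted p of 0.0603 and 0.0802 from limma. These bounds hold for the scanner's background subtraction, and after normexp correction the log2 fold changes were 1.36 and 0.59. Retnlg passed the threshold after scaling to the median and with a mean-variance trend (adjusted p = 0.0286 and 0.0431 from limma), and Igfbp2 with the mean of all its probes (adjusted p = 0.0436 from limma). The genes most like Atp2a2 were Rdh12, Gbp5 and Gper1, with root mean square differences of 0.0576, 0.0609 and 0.0630. Their log2 fold changes were -0.77, -0.77 and -0.75, with an adjusted p of 0.204 to 0.226 from limma. With 6 arrays, many of 13844 genes with a symbol can follow a given course closely. These genes were picked for their likeness to Sln or Atp2a2 on the same arrays. Their changes and p-values therefore follow from that choice and add no separate support.

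Around the 10 members, 66 further genes of calcium handling were listed in 9 roles. For 4 of them (Ryr3, Strit1, Erln and Arln) no probe was matched, for 3 (Ryr2, Jph4 and Trpc1) no probe was well above background on enough arrays, and 59 were tested. Of these, 20 were higher and 39 lower in aged mice, against 9019 higher and 11882 lower of all genes tested. The median of their log2 fold changes, -0.12, compares with -0.062 for all genes. Brighter genes had lower medians, with -0.084, -0.12 and -0.16 for mean log2 signals of 4 to 6, 6 to 8 and above 8. None passed the adjusted threshold in limma, and 6 had an unadjusted p under 0.05, against 14.4% of all genes. For 14 the groups did not overlap, against 21.8% of all genes. These 14 include Mcub, which passed the detection filter only through the aged arrays.

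Beside the voltage sensor, 5 partner genes were tested, 2 higher and 3 lower. Cacna2d1, the accessory subunit that carries the channel to the surface, was 5.94, 5.90 and 6.20 in young and 5.37, 5.63 and 5.46 in aged mice, lower in all aged mice by 0.53 on average (adjusted p = 0.253 from limma). Of 11 isoforms and partners of the release channel, 9 had a lower mean, among them sarcalumenin (Srl), a store glycoprotein that binds calcium, with a log2 fold change of -0.54 (adjusted p = 0.287 from limma). The largest difference in this list was that of Asph, whose locus encodes junctin among other products, at 0.68 with overlapping groups (adjusted p = 0.485 from limma). It was 0.33 with the mean of all Asph probes and 0.36 with the slide row as a block. Which transcripts of the locus each probe detects is not given in the sources used here. Of 6 junction and tubule genes, 4 were lower, and Cav3, the muscle caveolin, differed most at -0.47 (adjusted p = 0.421 from limma).

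Another pump inhibitor had lower values in aged mice, opposite to Sln. Myoregulin (Mrln), a SERCA-binding micropeptide of skeletal muscle, was 7.51, 7.66 and 7.82 in young and 6.39, 7.36 and 7.04 in aged mice. The groups did not overlap, and the aged mean was lower, with a log2 fold change of -0.74 (0.601-fold, SE 0.27, unadjusted p = 0.0298 and adjusted p = 0.299 from limma). It was lower in each of the 12 alternatives that altered its value, with -1.28 when the slide row was a block, -0.46 without aged mouse 1 and -0.39 without aged mouse 1 and young mouse 3. Atp2a3, the remaining SERCA gene, was at -0.46 with overlapping groups (adjusted p = 0.431 from limma).

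**Figure D4:**
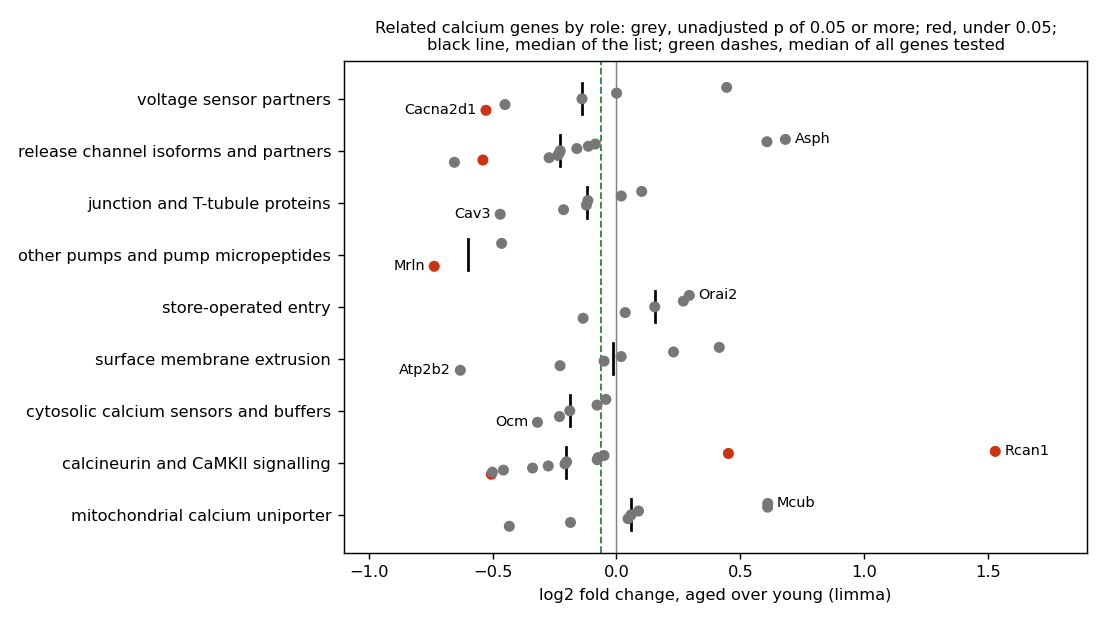
Log2 fold change of the 59 related calcium genes tested, by role. Each point is a gene, red where the unadjusted p from limma was under 0.05, black lines are list medians and the dashed line the median of all genes tested (-0.062). The gene farthest from 0 is named in each list, and the points run from -0.74 for Mrln to 1.53 for Rcan1.

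Downstream of calcium, 12 genes of calcineurin and CaMKII signalling gave 2 with a higher and 10 with a lower mean. Rcan1, a calcineurin inhibitor whose transcription calcineurin itself drives, was 3.73, 3.49 and 2.08 in young and 3.74, 4.43 and 5.71 in aged mice. Aged mouse 1 lay just above the highest young mouse, so that the groups did not overlap, and young mouse 3 was the lowest. The aged minus young difference was 1.53 on the log2 scale (standard error 0.61, unadjusted p = 0.0408 and adjusted p = 0.327 from limma). It was 1.02 without young mouse 3, 0.99 without aged mouse 3 and 0.64 with the slide row as a block. Camk2b, a kinase subunit activated by calcium and calmodulin, was 0.45 higher without overlap (unadjusted p = 0.0343, adjusted p = 0.311 from limma), and Nfatc4, a calcineurin-regulated transcription factor, 0.50 lower without overlap (adjusted p = 0.237 from limma).

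In the remaining roles too, no gene passed the adjusted threshold in limma. All 5 cytosolic sensors and buffers tested had a lower mean, from -0.32 for Ocm, a relative of parvalbumin that was well above background on 3 young arrays and 1 aged array, to -0.043 for Calm2. Of 5 genes of store-operated entry, 4 had a higher mean, led by the surface channel Orai2 at 0.29 (adjusted p = 0.421 from limma). Among 6 genes of calcium extrusion over the surface membrane, 3 were higher and 3 lower, with Atp2b2 farthest from 0 at -0.63 (adjusted p = 0.430 from limma). Of 7 genes of the mitochondrial calcium uniporter, 5 were higher. Mcub, which encodes a pore subunit that dampens uptake, was well above background on 0 young and 3 aged arrays and at least 1.33-fold higher in aged mice (adjusted p = 0.429 from limma), while after normexp correction its log2 fold change was 0.12.

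Of the other cell types listed, none with a gene past the adjusted threshold in limma, macrophage genes had a summed level of 17.4 to 19.0 times the 75th percentile in young and 19.2 to 24.4 times in aged mice (4 of 5 tested with a higher mean, the brightest, Csf1r, at -0.053, and Cd163 well above background on no array). Endothelial genes lay at 30.7 to 34.4 and 20.8 to 29.4 times (3 of 5 lower, the brightest, Vwf, at -0.31), both without overlap. Smooth muscle genes, which include tissue that uses Atp2a2 and Pln, lay at 69.8 to 118 and 65.0 to 75.9 times, with overlap (4 of 5 lower, the brightest, Smtn, at -0.48). Their part in the differences of the calcium genes was not tested.

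**Figure D5:**
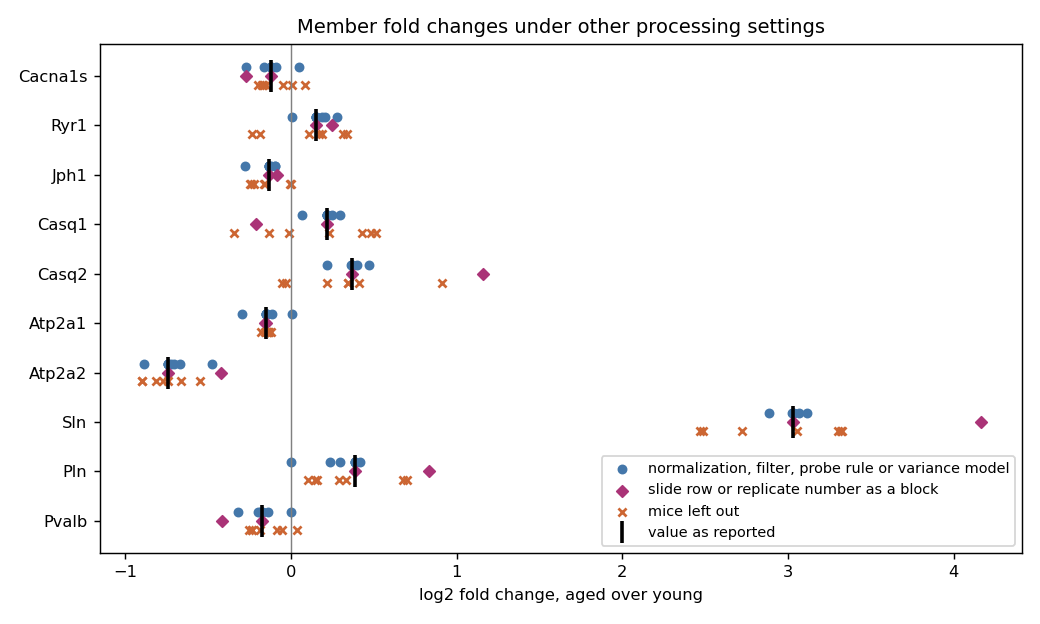
Log2 fold change of each member under the alternative settings. The vertical bar is the reported value, blue points other normalizations, filters, probe rules and variance models, purple diamonds fits with the slide row or replicate number as a block, and orange crosses fits with mice left out. Sln stays between 2.47 and 4.16 and Atp2a2 between -0.90 and -0.42, while the other members cross 0 in at least 1 setting.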

How the data were processed

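The authors deposited a Feature Extraction file for each of the 6 arrays (version 11.0.1.1 per the file headers, 9.5 per the labels), holding the processed signal, an intensity after background subtraction and detrending, without scaling across arrays. Intensities in the deposited series matrix were identical to these (largest log2 difference 0). Flagged outlier spots were dropped, spots averaged per probe on the log2 scale, and arrays scaled by their 75th percentile. RefSeq accessions were matched to symbols of GRCm38.p6, which named 28325 probes. A gene was represented by its brightest probe among those detected well above background in 3 or more mice. The age term was fitted in limma 3.58.1 under R 4.3.3 (lmFit, eBayes, Benjamini-Hochberg). The fit was also run on simulated data with independent noise for each gene. Those data hold no departure shared across an array and no slide row, so they do not bear on either. The number of arrays limits the precision. The members and lists were chosen with earlier results of these data known. Genes named were all members, related genes past the threshold or farthest from 0 in their list, and the brightest marker of a list. The 3 genes closest in profile to the 2 members with the largest change were also named. Srl, Camk2b, Nfatc4, Atp2a3, Calm2, Nppa, Myh6, Chrng and the genes named as not detected or not matched were added after their values were seen.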

Additional observations from a re-analysis of the deposited data

How the results depend on the processing

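The 18 alternatives changed the background correction, scaling, filter, probe rule, source of the values, variance model, block or mice used, and the series matrix values gave results identical to those reported. The 53 genes past the threshold became 8 with no filter on dim probes, 35 where detection on all 6 arrays was required, 5 with the replicate block, 1 to 199 with 1 mouse left out, and 198 with young mouse 3 and aged mouse 1 both left out, an alternative chosen after seeing the data. The number of members past the threshold, 0, was 1 (Sln) with the slide row as a block, which rests on aged mouse 1 as the only aged sample, and 0 to 1 with 1 mouse left out. No related calcium gene passed in any setting. The median change of the members, 0.016, was -0.049 under normexp, 0.16 after quantile normalization, -0.13 after scaling to the median (which moved the median of all genes from -0.062 to -0.21), -0.12 where detection on all 6 arrays was required, so that Pln dropped out, -0.12 with the slide row as a block, -0.11 to 0.16 with 1 mouse left out and -0.093 without young mouse 3 and aged mouse 1.

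Apart from mice left out, the direction turned for Pln under normexp (-0.00048), for Cacna1s (0.050) and Atp2a1 (0.0053) after quantile normalization, and with the slide row as a block for Casq1 (-0.21), Csf1r (0.14) and Vwf (0.028). With young mouse 3 and aged mouse 1 both left out it turned for Cacna1s (0.084), Ryr1 (-0.23), Casq1 (-0.13), Casq2 (-0.055), Pvalb (0.037), Ocm (0.029) and the difference Cacna1s minus Ryr1 (0.32). With 1 mouse left out, the change ranged from -0.20 to 0.0085 for Cacna1s, -0.19 to 0.34 for Ryr1, -0.24 to 0.0021 for Jph1, -0.34 to 0.51 for Casq1, -0.032 to 0.91 for Casq2 and -0.15 to 0.031 for the marker Csf1r, that of Casq2 minus Casq1 from -0.46 to 0.69 and that of Cacna1s minus Ryr1 from -0.54 to 0.20. The cause was not tested beyond the mice named. The labels do not state that replicate numbers pair mice across the groups. Deviations of same-numbered arrays from their group means correlated at -0.063, -0.27 and 0.028 across genes, and not every array was closest to its own number. With 3 arrays in each group, such deviations cannot show whether the numbers carry a pairing. With the replicate block the adjusted p of Sln was 0.214 and that of Atp2a2 0.398 from limma. The slide and scan could not be a block, with 1 of each.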
